A study of Ovis aries with 18 samples.

Results

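The 9 genes described here are WWOX, JADE2, TBCD, SLIT3, CNTF, DAB2IP, CAMSAP2, FSTL4 and PLXND1, out of 20092 genes in the embryo count table. They were chosen because they have known functions in the nervous system and because each holds at least 1 cytosine whose methylation in sperm differed between rams fed added methionine and control rams. The choice therefore rests on sperm methylation and known function. Embryo expression was not part of the rule, though earlier results of these data were known. The study's list of such genes also names NF2 and AK8, which are not described here. The study asked whether methionine in the diet of a ram, a source of methyl groups, leaves a trace in his sperm and in the transcriptome of the embryos he sires.

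Sheep of the Polypay breed were used throughout. The control rams (Ram410, Ram423 and Ram444) received a basal diet. The methionine-treated rams (Ram424, Ram498 and Ram511) ate it topped with 1.5 g (0.22%) of methionine protected from breakdown in the rumen. The rams were young and were fed before puberty, and semen and embryos were obtained after the feeding had ended. Sperm methylation was measured in the 6 rams by reduced representation bisulfite sequencing (RRBS), which reads single cytosines as methylated or unmethylated in genome fragments rich in CpG. Gene expression was measured by RNA sequencing of blastocysts flushed from superovulated ewes in 12 pools of 5 embryos. The 6 control pools were Embryo410_1, Embryo410_2, Embryo423_1, Embryo423_2, Embryo444_1 and Embryo444_2, and the 6 methionine pools were Embryo424_1, Embryo424_2, Embryo424_3, Embryo424_4, Embryo498_1 and Embryo511_1. Pools were formed by sire and dam, so that Ram424 alone accounts for 4 of the 6 methionine pools while Ram498 and Ram511 have 1 pool each. Pools of 1 ram are not independent, the dams were not analysed here, and p-values measure the spread between these pools.

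The blastocyst precedes any nervous tissue and consists of an inner cell mass and the trophectoderm, the outer layer that founds the placenta. Neurons find their targets by secreted guidance cues such as the slits and semaphorins, read by roundabout and plexin receptors, and they survive on trophic factors such as CNTF. Axon growth then depends on microtubules, which need cofactors that fold tubulin and proteins that cap microtubule ends. Many of these proteins also work outside the nervous system.

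Library totals ranged from 1017847 to 2398589 counts. Expression is given as CPM, counts scaled to a common library size, after TMM normalization for library composition. CPM is not divided by transcript length, so levels are compared between pools. Where genes are ordered or summed by CPM below, this describes reads and not numbers of transcripts. A pair of pools stood apart before diet was considered. The median Spearman correlation over genes with the other pools was 0.582 for control pool Embryo444_2 and 0.5996 for methionine pool Embryo511_1, against 0.820 to 0.857 for the 10 remaining pools. All 7 trophectoderm markers tested lay below the range of those 10 pools in both. The keratin KRT8 had 164 counts in Embryo444_2 and 43 in Embryo511_1, against 5486 to 24131 elsewhere. Transcripts of trophectoderm markers were thus scarce in both, and POU5F1, listed as an epiblast marker, was low there as well. In bulk pools fewer cells of a type and less RNA per cell cannot be told apart. TNP1, a nuclear protein gene of late spermatids, had 1017 counts in pool Embryo511_1 and at most 22 in any other pool. The sperm markers AKAP4 and ODF1 were not high there. AKAP4 was at 53.5 CPM in Embryo511_1, within the 14.3 to 83.7 CPM of the 10 remaining pools. ODF1 had 4 counts in Embryo511_1, against 0 to 17 in those 10. The fold change of each gene is therefore also given without Embryo444_2 and Embryo511_1, a choice made after the data were seen. Pools Embryo424_1 and Embryo424_2 were the most alike pair (Spearman 0.955) and were kept as separate samples, as labelled. They differed by more than counting noise, but counts from amplified RNA can do so too. That difference therefore cannot show that they are distinct samples. A fit with the pair summed is given among the alternatives.

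All 9 genes had reads in all 12 pools. Of all genes in the table, 89.3% did so too, hence detection does not set the 9 genes apart. With at least 10 counts required in every pool, 8 of the 9 genes remained detected, compared with 62.6% of all genes. CNTF was the exception, with 8 to 23 counts and 9 pools at 10 counts or more. WWOX had 13 to 56 counts, and the remaining 7 genes had medians of 55 to 221 counts per pool. Without molecular identifiers several reads may stem from 1 amplified molecule, hence these counts overstate precision. All 9 genes passed the filter of at least 15 counts in more than 3 pools, as did 16488 genes in all. The coefficient of variation over the 12 pools was 27.9% for CAMSAP2 and 28.8% for PLXND1, 50.6% for WWOX and 152% for SLIT3, with a median of 35.3% for the 9 genes and 42.2% for all genes tested.

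No gene of the 9 passed the test for sire diet. At FDR under 0.05 in the edgeR quasi-likelihood test 0 of 9 genes were called, beside 0% of the 16488 genes tested (smallest FDR 0.584). At an unadjusted p under 0.05 there were again 0 of the 9, beside 7.92% of all genes. In edgeR's likelihood-ratio test 5 genes were called (0.0303%) and in DESeq2 16 (0.0989%), none of them among the 9. An unadjusted p under 0.05 was reached by 1 of the 9, SLIT3, in the likelihood-ratio test (8.82% of all genes) and when pools were summed per ram (3.47%), by 0 of the 8 others in DESeq2 (8.84%), which gave no p for SLIT3, and by 0 of the 9 in the exact permutation test over pools (6.58%). In the main test the estimate was higher with methionine for SLIT3, PLXND1, CNTF, TBCD and DAB2IP and lower for FSTL4, CAMSAP2, JADE2 and WWOX. That is 5 of 9 higher where 50.5% of all genes were. The median log2 fold change of the 9 genes was 0.03, and that of all genes tested was 0.01. Pools of both diets overlapped for each of the 9 genes, and so did the ram means. Non-overlapping pools were found in 0.352% and non-overlapping ram means in 7.36% of all genes.

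**Figure D1:**
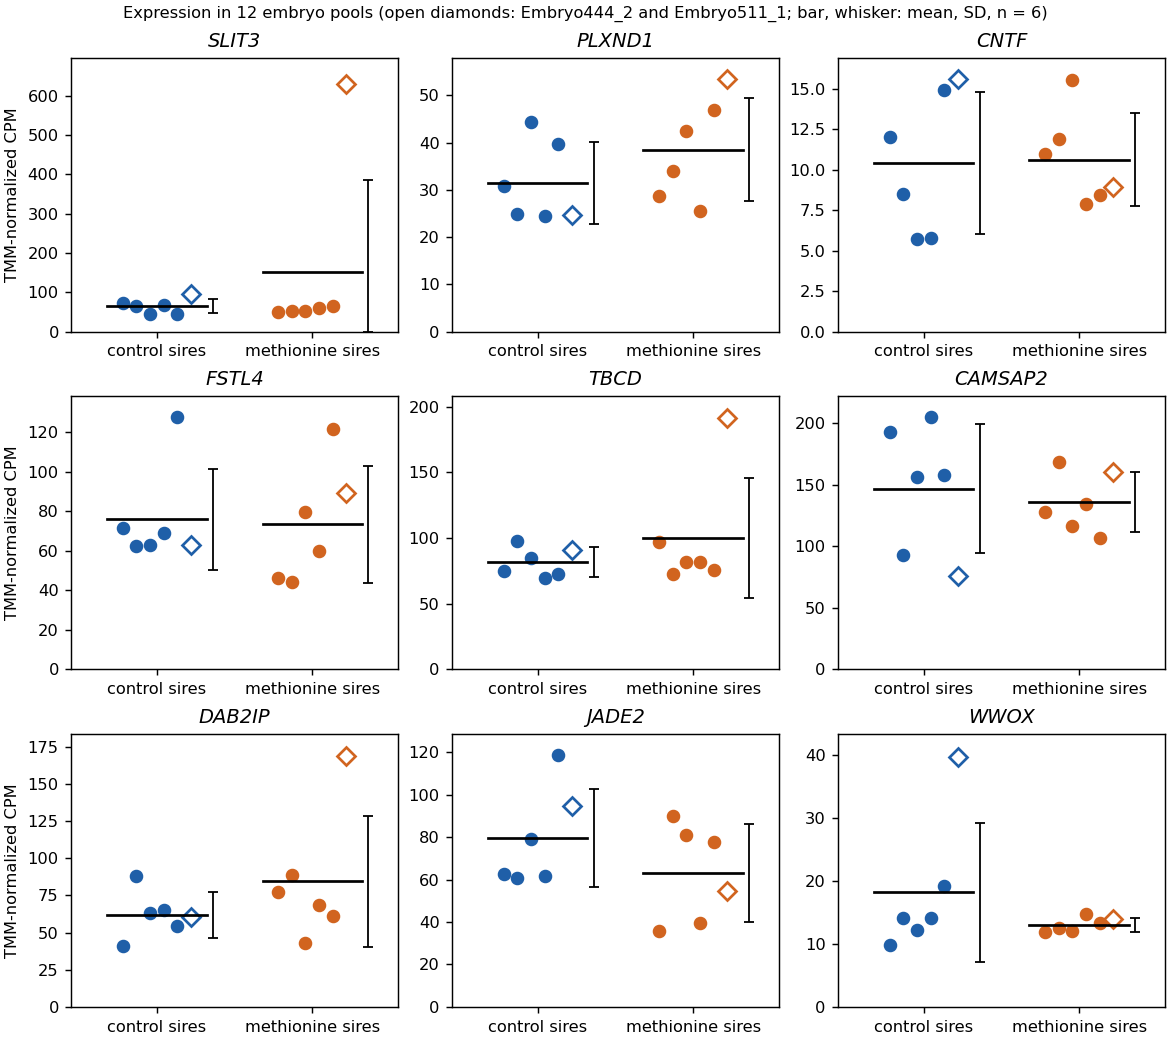
TMM-normalized CPM of each of the 9 genes (vertical axis, a separate linear scale from 0 in each panel) in the 6 pools of control sires (blue) and the 6 pools of methionine-treated sires (orange). Open diamonds are pools Embryo444_2 and Embryo511_1, horizontal bars are means and whiskers the SD (n = 6), with the lower whisker of SLIT3 ended at 0. The diets overlap in every panel, and single high pools stand out for SLIT3, TBCD and DAB2IP (Embryo511_1) and for WWOX (Embryo444_2).

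Values for each gene follow, with the pools in the order given above and 95% intervals for the fold change, beginning with the guidance genes. SLIT3 encodes a secreted ligand of the roundabout receptors that repels growing axons. Its level in the control pools was 73.7, 64.4, 45.0, 68.0, 45.4 and 94.9 CPM. In the methionine pools it was 49.7, 51.5, 51.5, 61.0, 64.4 and 631 CPM. A single pool, Embryo511_1, was high, at 11.2 times the median of the 10 pools that did not stand apart, and the other methionine pools lay within the range of the control pools. Group means were 65.2 ± 18.8 CPM in control and 151 ± 235 CPM in methionine pools (SD, n = 6 each), while the medians ran the opposite way at 66.2 and 56.2 CPM. The log2 fold change of 1.20 ± 0.60 (SE; interval -0.08 to 2.48) had an FDR of 0.656 in edgeR. The exact permutation test over pools gave p = 0.805 and that over the 6 rams p = 0.9, where 0.1 is the smallest p that 3 rams against 3 allow. Without Embryo511_1 the log2 fold change was -0.23, and without both Embryo444_2 and Embryo511_1 it was -0.10 ± 0.22 (edgeR FDR 0.889). It was 1.97 with pools summed per ram, 0.68 ± 0.58 with the ram as a random effect in limma, and 2.41 without the pools of Ram424 (edgeR FDR 0.207, the lowest over the alternatives).

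PLXND1 encodes plexin D1, a semaphorin receptor of axons and blood vessels. The control pools had 30.9, 24.8, 44.3, 24.4, 39.7 and 24.8 CPM. The methionine pools had 28.7, 34.0, 42.3, 25.6, 47.0 and 53.5 CPM. Pools Embryo498_1 and Embryo511_1 were the highest of the 12, and the 4 pools of Ram424 covered nearly the same range as the controls. With means of 31.5 ± 8.63 and 38.5 ± 10.9 CPM (SD, n = 6 each), the log2 fold change was 0.28 ± 0.27 (interval -0.29 to 0.86; edgeR FDR 0.801). Without Embryo444_2 and Embryo511_1 it was 0.10 ± 0.27. The exact permutation p was 0.240 over pools and 0.2 over rams.

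The trophic factor CNTF and the secreted protein FSTL4 had the smallest estimates. CNTF, ciliary neurotrophic factor, is a cytokine that sustains motor neurons through a receptor complex with LIFR and IL6ST. It had 12.0, 8.50, 5.71, 5.77, 14.9 and 15.6 CPM in control pools. It had 10.99, 11.9, 15.5, 7.87, 8.43 and 8.92 CPM in methionine pools. The pools of Ram423 were the lowest and those of Ram444 among the highest, so control sires held both ends of the range. The log2 fold change was 0.03 ± 0.36 (interval -0.74 to 0.80; edgeR FDR 0.991), and the interval still allows a fold of 0.598 to 1.74. On the log2 scale only SLIT3 had a wider interval. Without Embryo444_2 and Embryo511_1 the log2 fold change was 0.21 ± 0.38. Means were 10.4 ± 4.40 and 10.6 ± 2.87 CPM (SD, n = 6 each).

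FSTL4 encodes a secreted glycoprotein of the follistatin and SPARC family. Control pools held 71.5, 62.3, 62.9, 69.3, 128 and 63.0 CPM. Methionine pools held 46.4, 44.2, 79.8, 60.0, 122 and 89.2 CPM. Single pools were high in each diet, Embryo444_1 among the controls and Embryo498_1 among the methionine pools, while Embryo424_1 and Embryo424_2 were the lowest of the 12. The means of 76.1 ± 25.6 and 73.5 ± 29.6 CPM (SD, n = 6 each) gave a log2 fold change of -0.05 ± 0.29 (interval -0.66 to 0.55; edgeR FDR 0.975). It was -0.17 ± 0.30 without Embryo444_2 and Embryo511_1 and 0.26 when pools were summed per ram. FSTL4 overlaps LOC106991156 in the RefSeq annotation, and with no strand setting given for the counts, reads of the pair may not be separated.

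TBCD and CAMSAP2 act on microtubules. TBCD encodes tubulin folding cofactor D, which takes part in assembling the alpha and beta tubulin dimer. Its level was 74.5, 97.7, 85.0, 69.3, 72.4 and 90.6 CPM in control pools. Methionine pools had 96.5, 72.5, 81.9, 81.6, 75.3 and 191 CPM. Apart from Embryo511_1, which was at 2.44 times the median of the 10 other pools, TBCD varied less between pools than the other 8 genes did. With means of 81.6 ± 11.3 and 99.8 ± 45.6 CPM (SD, n = 6 each) the log2 fold change was 0.29 ± 0.26 (interval -0.26 to 0.84; edgeR FDR 0.795). Without Embryo444_2 and Embryo511_1 it was 0.02 ± 0.19, with an interval of -0.37 to 0.42. TBCD overlaps the genes B3GNTL1 and ZNF750 in the RefSeq annotation, so its reads carry the same uncertainty.

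CAMSAP2 binds the minus ends of microtubules that are not anchored at a centrosome, a stabilizing role in dendrites and axons. Control pools had 193, 92.8, 156, 205, 158 and 75.7 CPM. Methionine pools had 128, 169, 116, 135, 107 and 161 CPM. The control pools spread more widely than the methionine pools and enclosed them, with Embryo444_2 the lowest of the 12. Means were 147 ± 52.5 and 136 ± 24.3 CPM (SD, n = 6 each), and the log2 fold change was -0.11 ± 0.28 (interval -0.70 to 0.47; edgeR FDR 0.933). It was -0.31 ± 0.23 without Embryo444_2 and Embryo511_1. The pools Embryo410_1 and Embryo410_2 of 1 ram differed by 2.08 times, more than the diet means did.

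The signalling and nuclear proteins close the list. DAB2IP encodes a RAS GTPase activating scaffold that takes part in neuronal migration. Control pools had 40.6, 87.8, 62.9, 65.4, 54.6 and 60.2 CPM. Methionine pools had 76.9, 88.9, 43.1, 68.3, 60.8 and 169 CPM. Pool Embryo511_1 was again the highest, at 2.63 times the median of the 10 other pools, and the 5 other methionine pools were spread over the control range. Means of 61.9 ± 15.4 and 84.4 ± 44.0 CPM (SD, n = 6 each) gave a log2 fold change of 0.44 ± 0.30 (interval -0.20 to 1.08; edgeR FDR 0.732). Without Embryo444_2 and Embryo511_1 the value was 0.11 ± 0.24.

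JADE2 encodes a PHD finger protein that serves as a scaffold of the HBO1 histone acetyltransferase complex. It had 62.5, 60.9, 79.3, 61.6, 119 and 94.9 CPM in control pools. It had 35.8, 90.0, 81.2, 39.3, 77.7 and 54.5 CPM in methionine pools. The 3 lowest pools were methionine pools and the 2 highest were control pools, both of Ram444. The means were 79.6 ± 23.3 and 63.1 ± 23.0 CPM (SD, n = 6 each), with a log2 fold change of -0.34 ± 0.28 (interval -0.93 to 0.26; edgeR FDR 0.770). It was -0.25 ± 0.29 without Embryo444_2 and Embryo511_1. JADE2 had the smallest exact permutation p over pools of the 9 genes, 0.208. Within Ram424 the pools ranged from 35.8 to 90.0 CPM, 2.51 times, which was wider than the difference between diets.

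WWOX encodes an oxidoreductase with WW domains that spans a common fragile site and whose loss disturbs brain development. Its control pools had 9.78, 14.2, 12.1, 14.1, 19.2 and 39.6 CPM. Its methionine pools had 11.9, 12.5, 12.0, 14.7, 13.2 and 13.9 CPM. The methionine pools were within a narrow range, and Embryo444_2 alone was high, at 3.08 times the median of the 10 pools that did not stand apart. Means of 18.2 ± 10.97 and 13.05 ± 1.12 CPM (SD, n = 6 each) gave a log2 fold change of -0.48 ± 0.36 (interval -1.23 to 0.28; edgeR FDR 0.747). It was -0.12 ± 0.31 without Embryo444_2 and Embryo511_1.

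**Figure D2:**
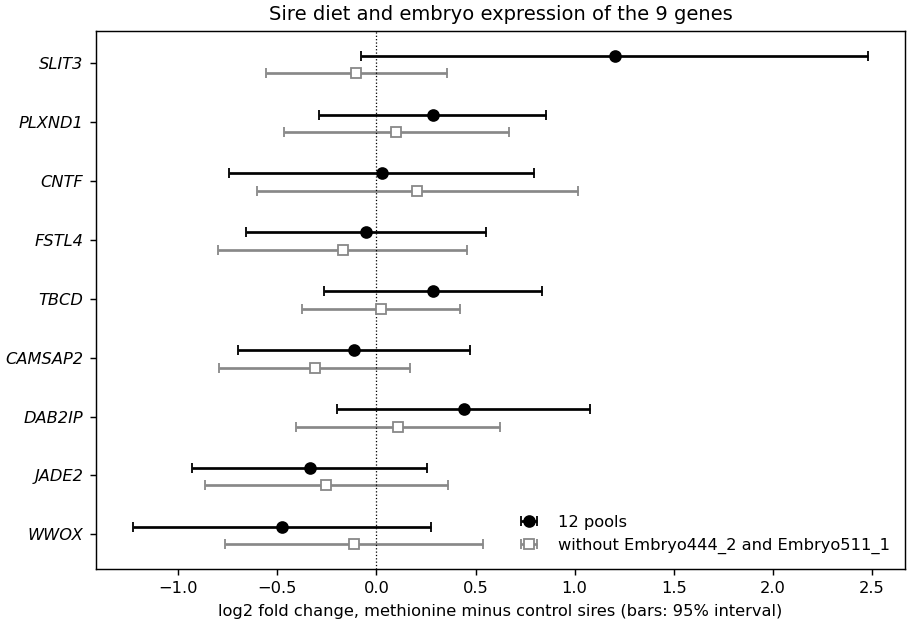
Log2 fold change of each of the 9 genes between methionine and control pools (horizontal axis, edgeR quasi-likelihood fit) with 95% intervals. Filled circles use the 12 pools and open squares leave out pools Embryo444_2 and Embryo511_1. Every interval includes 0, and SLIT3 moves from 1.20 to -0.10 when the pair is left out.

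The size of difference that these pools could miss was read from the intervals. In the 12 pools the intervals allowed a fold of 0.819 to 1.81 for PLXND1, 0.832 to 1.79 for TBCD, 0.616 to 1.39 for CAMSAP2 and 0.525 to 1.20 for JADE2. For SLIT3 they allowed 0.949 to 5.58. These intervals take the 12 pools as independent, and the SE was larger for each of these genes with pools summed per ram. It was then 0.353 for PLXND1 and 0.419 for TBCD, against 0.271 and 0.261 over the 12 pools. Thus changes of the order of the spread between pools were not detectable at this number of pools, and the values do not show that the diets were alike. In the 10 pools 1 of 16161 genes passed FDR under 0.05 (0.00619%) and 0 of the 9 did, and at an unadjusted p under 0.05 there were 0 of the 9 beside 11.9% of all genes.

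The pools Embryo444_2 and Embryo511_1 offered a comparison of the 9 genes with lineage markers that does not involve diet. Relative to the median of the 10 other pools, the trophectoderm markers had a median ratio of 0.082 in Embryo444_2 and 0.072 in Embryo511_1. The low levels were not limited to the markers listed for that lineage. How specific each marker is to its lineage in these embryos was not tested. POU5F1 (ratios 0.045 and 0.125) and SALL4 (0.134 and 0.300) of the epiblast list and GATA6 (0.0998 and 0.170) of the hypoblast list were also below the range in both pools. The epiblast genes NANOG and TDGF1 were within it, PDGFRA was above it in Embryo444_2, and GATA4 was above it in Embryo511_1. The 9 genes had median ratios of 1.16 and 1.35, beside 1.04 and 0.992 for all genes. In Embryo444_2, SLIT3, CNTF and WWOX lay above the range of the 10 other pools and CAMSAP2 below it, beside 22% of all genes above and 24.6% below. In Embryo511_1, SLIT3, PLXND1, TBCD and DAB2IP lay above it and none of the 9 below, beside 24.9% above and 26.6% below. The summed level of the 9 genes was 485 to 651 CPM in the 10 pools, 559 in Embryo444_2 and 1371 in Embryo511_1, where SLIT3 alone contributed 631.

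Of the 13 neuron and glia markers tested, 0 lay below the range of the 10 other pools in Embryo444_2 and 1, the neurofilament gene NEFM, in Embryo511_1, beside the 24.6% and 26.6% of all genes. Above that range were 6 in Embryo444_2 and 2 in Embryo511_1, beside 22% and 24.9%. Of the 15 such markers in the table, 14 had a read in every pool, beside 89.3% of all genes, the oligodendrocyte factor OLIG2 being the exception. No background level of reads was estimated, so counts of these markers or of the 9 genes, low or not, do not by themselves establish expression. The neuronal marker MAP2 had 86 to 164 counts in the 10 pools. The summed level of the neuron and glia markers was 293 to 379 CPM in the 10 pools, 636 in Embryo444_2 and 403 in Embryo511_1. MAP2 was at 48.7 to 105 CPM in the 10 pools, and the neuronal RNA-binding protein ELAVL4 at 137 CPM in Embryo444_2 against 15.5 to 51.2. By diet the sum was 318 to 636 CPM in control and 293 to 403 CPM in methionine pools. The sperm markers summed to 16.4 to 101 CPM in the 10 pools, 47.4 in Embryo444_2 and 1066 in Embryo511_1, nearly all of it TNP1. Of the blood markers, PTPRC was above the range of the 10 pools (40.2 to 76.5 CPM) in both, at 121 and 254 CPM, and CD68 was below it (8.60 to 38.8 CPM) in both, at 6.37 and 1.98 CPM. The part of cell composition in the levels of SLIT3, TBCD, DAB2IP and WWOX was not tested.

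**Figure D3:**
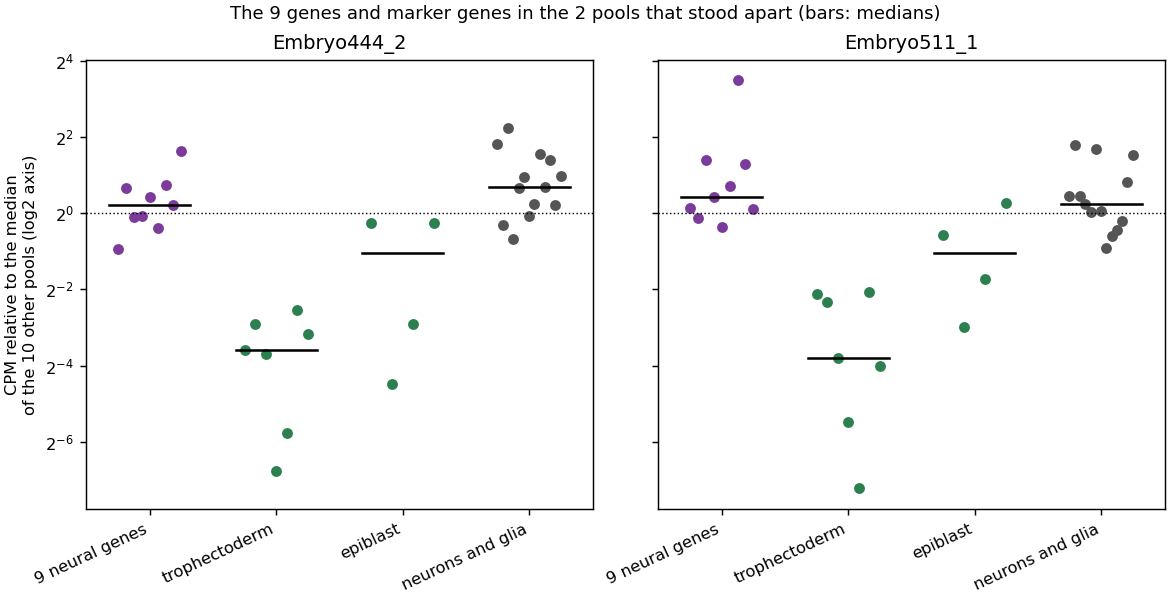
Level of each gene in pool Embryo444_2 (left) and pool Embryo511_1 (right) divided by its median in the 10 other pools (vertical log2 axis, dotted line at equality), for the 9 neural genes and the tested markers of trophectoderm, epiblast, and neurons and glia. Horizontal bars are medians. Trophectoderm markers sit far below the line (medians 0.082 and 0.072), and the 9 genes scatter around it (1.16 and 1.35).

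The partners of the 9 genes were examined next, in lists chosen by function. In no list did a gene pass FDR under 0.05. Of the 102 partner genes tested, 8 (7.84%) had an unadjusted p under 0.05, close to the 7.92% of all genes. The SLIT and ROBO list had 10 genes tested, from ROBO4 at a mean of 23.0 CPM to SRGAP1 at 141 CPM over the 12 pools. At an unadjusted p under 0.05, ROBO3 had a log2 fold change of -0.87 ± 0.29 and ROBO4 of -0.91 ± 0.34 (edgeR FDR 0.584 and 0.585). ROBO3 ranged from 33.3 to 77.0 CPM in control and from 15.5 to 42.2 CPM in methionine pools, so the diets overlapped. The genes in this paragraph and the next that are given with an unadjusted p under 0.05 were picked after their values were seen. Of the 31 plexins, neuropilins and semaphorins tested, from SEMA4C (13.1 CPM) to NRP2 (128 CPM), 0 reached it. In the CNTF receptor list of 11 genes, which ran from CNTF itself to LIFR (126 CPM), only the receptor subunit CNTFR did, at -0.70 ± 0.29 (FDR 0.607). Its pools ranged from 40.4 to 123 CPM in control and from 31.7 to 65.4 CPM in methionine pools.

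Among 11 tubulin folding cofactors and prefoldins, from TBCA (9.65 CPM) to TBCB (109 CPM), the prefoldin subunit PFDN5 had a log2 fold change of 1.42 ± 0.41 (edgeR FDR 0.584). It ranged from 16.99 to 68.7 CPM in control pools and from 57.5 to 293 CPM in methionine pools, with Embryo511_1 at the upper end. The 11 proteins of microtubule minus ends, from TUBGCP2 (28.7 CPM) to TUBGCP3 (180 CPM), gave none. In the JADE and HBO1 list of 10 genes, from ING4 (35.5 CPM) to JADE1 (128 CPM), the complex subunit ING4 had 0.69 ± 0.25 (FDR 0.585). Its 6 methionine pools (35.9 to 54.5 CPM) all lay above its 6 control pools (15.6 to 35.4 CPM), as happened in either direction for 1 of the 102 partner genes and 0.352% of all genes. Of 12 genes of RAS GTPase activating proteins and proteins related to them, from RASAL3 (24.2 CPM) to IQGAP1 (160 CPM), RASAL3 had -0.74 ± 0.30 (FDR 0.596). Of 9 genes of the follistatin and SPARC family, from FSTL5 (28.1 CPM) to FSTL4 itself, SMOC1 had -0.82 ± 0.29 and SPOCK1 0.92 ± 0.33 (FDR 0.585 each). SPOCK1 was at 149 CPM in Embryo511_1 and at most 60.0 CPM in the 11 other pools. The 6 genes of the WWOX list, WWOX itself among them, ran from TP73 (8.92 CPM) to TFAP2C (429 CPM) and gave none. Of the 13 neuron and glia markers tested, NEUROD1 had -1.40 ± 0.48 and ELAVL3 1.18 ± 0.45 (FDR 0.584 and 0.585).

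Correlations among the 9 genes were low in general. Over the 36 pairs of them the Pearson coefficient of log2(CPM + 1) across the 12 pools had a median of 0.05, from -0.59 to 0.88. The highest, SLIT3 with TBCD, was 0.88 over 12 pools and -0.18 over the 10 without Embryo444_2 and Embryo511_1. PLXND1 and JADE2 had 0.31 over 12 and 0.66 over 10 pools, the highest value of the latter. All coefficients share the same libraries and their depth and are given as descriptions.

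For each of the 9 genes the most similar profiles in the transcriptome were listed by the same coefficient. SLIT3 was closest to TRPM6 (0.97) and PLCB4 (0.97), which fell to 0.51 and 0.55 over the 10 pools. TBCD was closest to COG5 (0.98) and OC90 (0.95), DAB2IP to TEX49 (0.95) and DNAJC3 (0.90), and all 4 peaked in Embryo511_1 as their partners did. WWOX was closest to AHR (0.98) and LOC101109077 (0.94), both highest in Embryo444_2, and AHR kept 0.91 over the 10 pools. FSTL4 was closest to INPP5E (0.93) and the epiblast marker TDGF1 (0.90), with 0.93 and 0.91 over the 10 pools. CAMSAP2 was closest to DCP2 (0.91) and LOC101105867 (0.86), CNTF to VPS54 (0.89) and LOC114117240 (0.85), JADE2 to SCRT1 (0.87) and TSSK3 (0.84), and PLXND1 to ZNF526 (0.86) and NUDT18 (0.86).

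The sperm sites that led to the choice of these genes are 11 cytosines of the 1850625 covered in all rams. Each was covered by 10 to 42 reads per ram. They are given as a description and not tested, since the genes were chosen on them. Bisulfite reads of 1 strand cannot tell a C to T sequence variant from an unmethylated cytosine. Whether such variants differ between the rams was not tested. At all 11 sites the 3 rams of 1 diet did not overlap the 3 of the other and the pooled levels differed by over 20 points, which held for 0.368% of all cytosines. Methylation was lower in methionine-treated rams at 9 sites and higher at 2. By the authors' annotation 10 sites were in introns and 1, in CAMSAP2, in an exon, and 2 fell in short interspersed nuclear elements (SINE). Positions refer to Oar_rambouillet_v1.0, the build to which the reads were aligned.

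**Figure D4:**
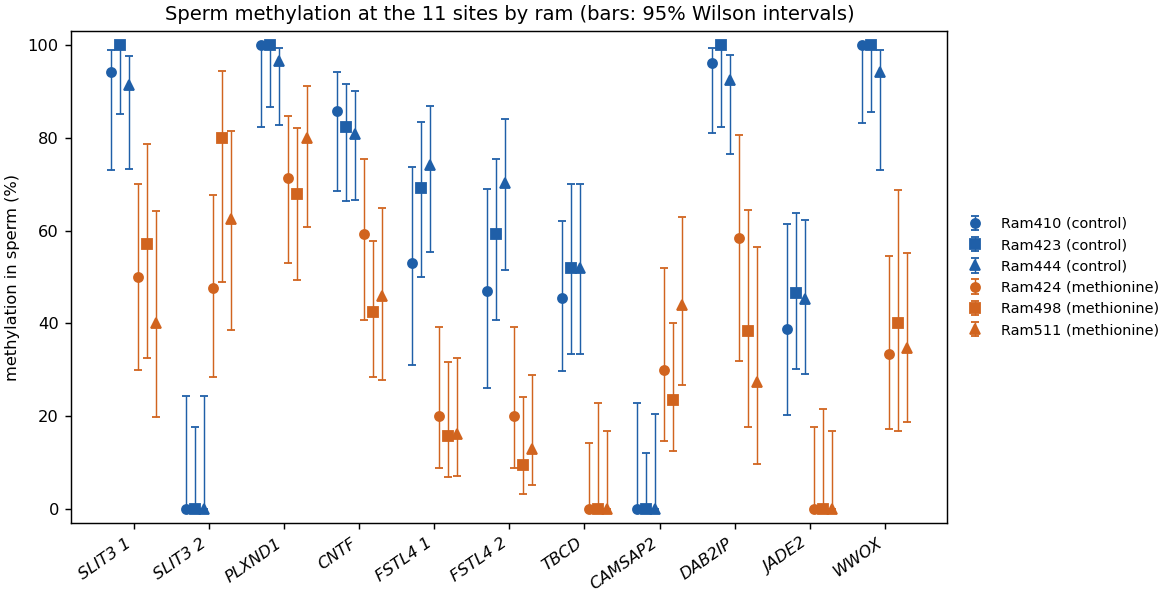
Methylation in sperm (vertical axis, percent of reads) at each of the 11 sites of the 9 genes, for the 3 control rams (blue) and the 3 methionine-treated rams (orange). Bars are 95% Wilson intervals, which cover counting error only. The diets are separated at each site by 16.6 to 54.1 points between the nearest rams.

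SLIT3 carries a site of each direction. At chromosome 16 position 931461 (plus strand) control rams had 94.1%, 100% and 91.3%, in the order of their numbers, and methionine-treated rams 50.0%, 57.1% and 40.0%. At position 934292 (minus strand, in a SINE) all 3 control rams were at 0%, against 47.6%, 80.0% and 62.5% with methionine. No methylated read was seen among 42 control reads, which allows a level of up to 7.14%. The same gene thus held a lower and a higher site. Around the first site the 5 covered cytosines within 500 bp were lower too, 92.0% ± 5.76 in control and 73.9% ± 17.1 in methionine-treated rams (SD of ram means, n = 3 each). Around the second the 8 neighbours were at 98.1% ± 1.76 and 98.2% ± 0.512.

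Sites in PLXND1, CNTF and FSTL4 lay in stretches where most covered neighbours were lower by over 20 points. For PLXND1 (chromosome 19 position 58086588, plus strand) the levels were 100%, 100% and 96.6% in control and 71.4%, 67.9% and 80.0% in methionine-treated rams. Its 36 neighbours averaged 64.4% ± 8.404 and 41.3% ± 9.43, and 24 of them were lower by over 20 points. The cytosine of the opposite strand of the same CpG was covered here alone among the 11 sites, at 97.1% and 78.8%. CNTF (chromosome 15 position 88384110, minus strand) had 85.7%, 82.4% and 81.0% in control and 59.3%, 42.5% and 45.8% in methionine-treated rams, and all 25 neighbours were lower by over 20 points (72.2% ± 8.24 to 37.2% ± 16.6). FSTL4 had a pair of sites on the plus strand of chromosome 5, at 47133901 with means of 65.4% ± 11.1 and 17.3% ± 2.39 and at 47133940 with 58.9% ± 11.7 and 14.1% ± 5.41. Of the 9 neighbours of the first, 6 were lower by over 20 points, among them the second site itself (all 9: 40.4% ± 6.16 to 10.2% ± 7.73).

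Around the sites in TBCD, DAB2IP and WWOX no covered neighbour differed by over 20 points. TBCD (chromosome 11 position 13083676, plus strand) had 45.5%, 52.0% and 52.0% in control rams and 0% in each methionine-treated ram (0 of 55 reads, which allows up to 5.45%), while its 3 neighbours were at 98.9% and 99.6%. DAB2IP (chromosome 3 position 14721907, minus strand) had 96.2%, 100% and 92.6% in control and 58.3%, 38.5% and 27.3% in methionine-treated rams, and its 7 neighbours were at 99.1% and 99.2%. WWOX (chromosome 14 position 5749276, plus strand, in a SINE) had 100%, 100% and 94.1% and then 33.3%, 40.0% and 34.8%, with 3 neighbours at 98.9% and 97.9%. CAMSAP2 (chromosome 12 position 83045808, plus strand) went from 0% in each control ram (0 of 56 reads, up to 5.36%) to 30.0%, 23.5% and 44.0%, among 72 neighbours at 33.9% and 31.0% of which 0 were higher by over 20 points and 1, at 15 bp on the same strand, was lower (53.4% to 31.2%). JADE2 (chromosome 5 position 48153594, plus strand) had 38.9%, 46.7% and 45.2% in control and 0% in each methionine-treated ram (0 of 51 reads, up to 5.88%) and no covered neighbour within 500 bp.

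**Figure D5:**
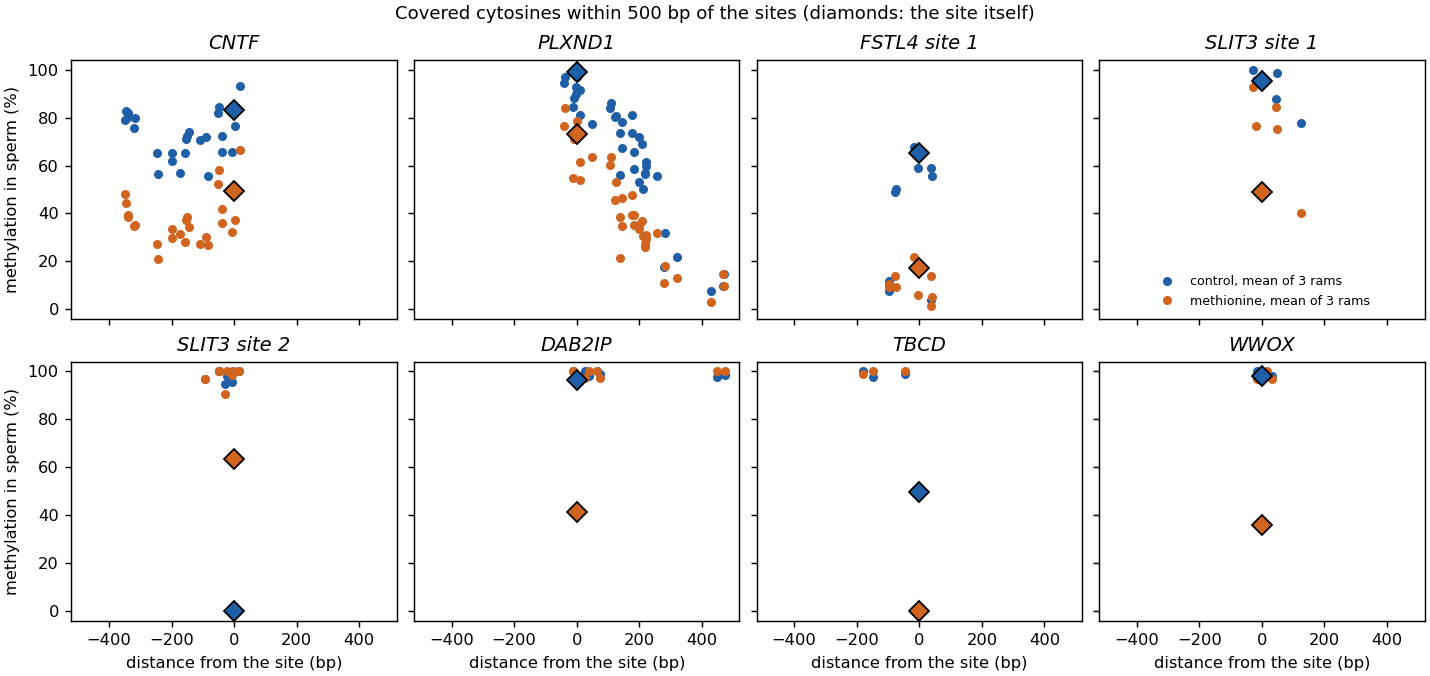
Mean methylation over 3 rams (vertical axis, percent) of covered cytosines within 500 bp of a site, by distance from it in bp, for control (blue) and methionine-treated (orange) rams. Diamonds are the sites. The colours part over the whole stretch around CNTF and for much of PLXND1 and FSTL4, and only at the diamond for DAB2IP, TBCD, WWOX and the second SLIT3 site.

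The genes whose sites were lower in methionine-treated rams comprised genes with a higher embryo estimate (PLXND1, CNTF, TBCD and DAB2IP) and genes with a lower one (FSTL4, JADE2 and WWOX). CAMSAP2, with its site higher in sperm, had an estimate of -0.11, and SLIT3, with sites of both directions, 1.20. At each of the 11 sites the rams fall into separate clusters by diet, hence a relation between sperm methylation and embryo expression cannot be told apart from diet with these 6 rams, and no coefficient is given.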

How the data were processed

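The deposited RNA-seq values are raw read counts per gene and pool. The authors amplified the whole transcriptome, trimmed reads with Trimmomatic, aligned them to Oar_rambouillet_v1.0 and counted them with STAR. The strand setting is not given in the sources used here. The deposited RRBS values are counts of methylated and of unmethylated reads at each cytosine in each ram, which the authors made with Trim Galore, Bismark and Bowtie2, removing duplicates by molecular identifiers and requiring 10 reads or more in every sample. Samples were grouped by the diet in their labels. The authors' statistics were used only in the choice of the 9 genes and 11 sperm sites, which come from the cytosines they called different between diets.

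The 16488 genes that reached 15 counts in over 3 pools were normalized by TMM and tested for diet in edgeR 4.0.16 under R 4.3.3 by quasi-likelihood, two-sided, with Benjamini-Hochberg FDR over all genes tested. The common biological coefficient of variation was 0.450, and limma 3.58.1 estimated a correlation of 0.263 between pools of the same sire. Standard errors are the log2 fold change over the square root of F. Exact permutation tests used log2(CPM + 1) over 924 assignments of pools or 20 of rams, whose smallest p-values are 0.00216 and 0.1. The fits were tested on simulated data. Methylation levels are read shares with 95% Wilson intervals, and for 0 methylated reads the limit is 3 reads of the total. Both cover counting error only. The depth of 10 to 42 reads limits the precision at single sites.

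The 9 genes and the gene lists were chosen with earlier results of these data known. All 9 genes are named, with the 2 most correlated genes for each, and for each list the members at the highest and lowest mean CPM and any at FDR under 0.05. Alternatives were the likelihood-ratio test, DESeq2 1.42.0, RLE size factors, no filter or edgeR's own filter, counts summed over the pools of a sire, the sire as random effect, and leaving out each pool or sire. Leaving out Embryo444_2 and Embryo511_1 together and summing Embryo424_1 and Embryo424_2 were added after seeing the data. Overlapping genes were looked up by name in the RefSeq table of ARS-UI_Ramb_v3.0, whose coordinates were not used. The markers GATA3, SOX2, LIN28A, HNF4A, TUBB3, HBB, LYZ and PRM1 were not analysed here. Summaries and figures used Python 3.11.15 with pandas 2.3.3, scipy 1.17.1 and matplotlib 3.10.9.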

Additional observations from a re-analysis of the deposited data

Results flagged for a closer look

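In 5 of 18 groups of 6 pools the highest pool lay far from the others by Dixon's criterion, which chance alone meets in about 1 of 20 groups. Over all genes tested 16.7% of such groups met it, so pools far from the others are common here. SLIT3 was at 631 CPM, TBCD at 191 CPM and DAB2IP at 169 CPM in methionine pool Embryo511_1. FSTL4 was at 128 CPM in control pool Embryo444_1, and WWOX at 39.6 CPM in control pool Embryo444_2. Pools Embryo511_1 and Embryo444_2 are those that stood apart over all genes, whereas Embryo444_1 had a median correlation with the other pools of 0.822, within the range of the remaining ones.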

How the results depend on the processing

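No alternative called any of the 9 genes. Over all genes, where the main test called 0, the likelihood-ratio test called 5, DESeq2 16, and the fit without Embryo444_2 and Embryo511_1 together 1, while leaving out single pools or rams gave 0 to 0. With pools summed per ram the log2 fold change turned to -0.068 for CNTF and 0.26 for FSTL4, with the ram as a random effect to 0.025 for FSTL4, with Embryo424_1 and Embryo424_2 summed to 0.055 for FSTL4, and without Embryo444_2 and Embryo511_1 to -0.10 for SLIT3, and the cause was not tested. Over the pools and rams left out in turn, values ran from -0.23 to 2.41 for SLIT3 (negative without Embryo511_1), from -0.00064 to 0.71 for TBCD (without Embryo511_1), from -0.26 to 0.40 for CNTF, from -0.26 to 0.48 for FSTL4, from -0.26 to 0.071 for CAMSAP2 (positive without Embryo423_2 or Ram423) and from -0.70 to 0.051 for WWOX (positive without Ram444). CNTF failed the count filter without Ram424 and has no value there. PLXND1 (0.17 to 0.68), DAB2IP (0.13 to 0.89) and JADE2 (-0.49 to -0.07) kept their sign. Mean CPM and sperm levels moved by less than the spread between replicates, and with at least 10 counts required CNTF was detected in 9 of 12 pools and the 8 other genes in all 12. No paired analysis was possible because pool numbers count the pools of a ram and pair nothing between diets. Of the methionine pools 4 are of Ram424, so diet and sire are weakly separated.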
